A study of Mus musculus with 8 samples.

Results

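The protein-coding genes for the cytosolic ribosomal proteins were followed in RNA from mouse embryonic ventricles. Members were chosen by symbol: Rpl or Rps with a number, Rplp0 to Rplp2 and Rpsa, annotated as protein-coding in GENCODE release M21. The rule found 83 of the 53465 genes in the deposited table, and 81 of them passed the filter on low counts and were tested among 15388 genes. They comprised 46 genes of the large subunit, 30 of the small subunit and 7 paralogues (Rpl3l, Rpl7l1, Rpl10l, Rpl22l1, Rpl36al, Rpl39l and Rps27l). At embryonic day 15.5, 4 wild-type (WT) ventricle libraries were set against 4 whose genotype label is Nrg1flox;Cdh5-CreERT2, here called flox-labelled. In that line a Cre recombinase that tamoxifen can activate is driven by the promoter of the endothelial cadherin gene Cdh5, and is meant to remove floxed Nrg1 sequence in endothelial cells. The labels do not give the tamoxifen or Cre status of the WT embryos. The sources give 1 ventricle per replicate and nothing on litters, so p-values measure the spread between these libraries.

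Every cytosolic ribosome carries about one copy of nearly every ribosomal protein, arranged on ribosomal RNA in a small subunit that reads the mRNA and a large subunit that joins amino acids. Cells therefore keep the mRNAs of these proteins at high and matched levels. Most belong to the TOP mRNAs, which begin with a cytosine followed by a tract of pyrimidines and whose translation follows growth signals through mTOR and the RNA-binding protein Larp1. Growth factor receptors of the ErbB family, which neuregulin engages in the heart muscle, act upstream of such signals. RNA-seq measures the amount of these mRNAs and not their translation. A few ribosomal proteins have paralogues with restricted expression, and Rpl3l replaces Rpl3 in ribosomes of striated muscle. The intronless copies that reverse transcription has left across the genome, the processed pseudogenes, are more numerous for this family than for most.

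Library totals ranged from 16761763 to 24144272 expected counts, with flox-labelled library 4 the shallowest, and the ribosomal protein genes took 2.87% to 3.06% of each. Nrg1 was at 4.08 to 5.46 CPM (counts scaled to library size) in WT and at 5.36 to 6.80 CPM in flox-labelled libraries, so it was not lower in the latter and did not check the labels. Xist and Y-linked transcripts, which mark female and male cells, were present together in 7 libraries. Xist was at 0.192 to 206 CPM in the WT group and 103 to 327 CPM in flox-labelled libraries. The Y-linked sum was at 69.3 to 171 CPM and 42.9 to 120 CPM. RNA of both sexes in 1 library conflicts with the 1 ventricle per replicate that the sources give, and how it arose was not tested. Summed levels of the marker lists for ventricular cardiomyocytes (8 genes, 45410 to 50170 CPM in the WT group and 44273 to 50532 CPM in flox-labelled libraries), endothelium, erythroid cells, fibroblasts, macrophages and atrium each overlapped between the groups, and no marker listed was at 0 in all libraries. Singly, 0 markers were called, but 3 of 8 endothelial markers were lower without overlap in flox-labelled libraries (3% of all genes tested were). Kdr and Esam had an FDR of 0.0693 and 0.0584 (edgeR). The endothelial markers did not all fall, since 2 of the 8 had log2 fold changes above 0 (Emcn 0.18 and Cdh5 0.008). All 6 atrial markers had log2 fold changes below 0, with a median of -0.22. The part of other cell types in the values below was not tested.

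Sequence sets how well these genes can be counted, so it is shown first. Rpl10, a large subunit protein that joins the ribosome late in its assembly, lies on the X chromosome at chrX:74270812-74273135 (GRCm38, forward strand). Its copy Rpl10-ps3 lies at chr9:50344201-50344968, and GENCODE M21 lists it as protein-coding despite its pseudogene name. Over the 642 coding bases the 2 genes had 0 differences. The first 60 coding bases below, as long as 1 read, therefore stand for both genes, and the start codon is not marked because no base sets them apart.

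Rpl10 and Rpl10-ps3: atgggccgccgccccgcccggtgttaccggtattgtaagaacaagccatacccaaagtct

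Rpl12 with its copy Gm10275 (495 coding bases) and Rps12 with Rps12-ps3 (396 coding bases) also had 0 differences. Rps13, a small subunit protein, and Rps13-ps1 differed at 2 of 453 coding bases. Both differences fall in the stretch below, in capitals, and 89.1% of the 60-base words of the Rps13 coding sequence were identical in the copy.

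Rps13: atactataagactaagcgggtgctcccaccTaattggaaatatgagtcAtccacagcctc
Rps13-ps1: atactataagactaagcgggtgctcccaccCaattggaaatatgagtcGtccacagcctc

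Across the 83 genes, a median of 52.8% of the 60-base words in the main mRNA also occurred in another annotated transcript. In 43 genes the share was over 50%, in Rpl10 it was 92%, and in Rps2 it was 75.6%. Rpl3l was one of 4 genes that shared none. The authors' counting divides a read that matches several genes between them by estimation. As a result 85.1% of the ribosomal protein values lay more than 0.005 from a whole number, against 18.1% over the whole table.

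Promoters were compared because co-expressed genes may share start-site sequence. RefSeq promoter windows of 300 bases on GRCm38 were found for 63 of the 83 genes, with 75 start sites. A run of at least 8 pyrimidines within 20 bases before to 30 bases after the start stood in 46.7% of these starts and in 19% of all 32851 starts. A cytosine followed by 4 pyrimidines exactly at the start stood in 17.3% and 2.51%. The ETS-type motif CCGGAAG, read on both strands, was found in 34.7% against 8.86%. For the palindrome CTCGCGAG the shares were 10.7% and 0.919%, and for AAGATGGC, the YY1-type motif, 10.7% and 2.75%. TATAAA was found in 9.33% and 13.6%, and CACGTG in 10.7% and 7.15%. These are matches of letters and not sites of binding. Members with Rpl and Rps symbols, paralogues included, had CCGGAAG in 31.9% and 39.3% of their starts.

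Below, 150 bases before to 30 bases after the RefSeq start are shown for Rps2, the one gene that rose in the flox-labelled libraries, for Rps6, a gene with both start features, and for the muscle paralogue Rpl3l. Capitals mark CCGGAAG on either strand, CTCGCGAG and the pyrimidine run at the start, while TATAAA is left in lower case. The Rps2 window holds TATAAA after the start and, on the other strand, near the far upstream end. The windows are chr17:24719913-24720092, chr4:86857338-86857517 (reverse strand) and chr17:24727676-24727855. The RefSeq start of Rps2 lies within the longer gene that GENCODE M21 draws.

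Rps2: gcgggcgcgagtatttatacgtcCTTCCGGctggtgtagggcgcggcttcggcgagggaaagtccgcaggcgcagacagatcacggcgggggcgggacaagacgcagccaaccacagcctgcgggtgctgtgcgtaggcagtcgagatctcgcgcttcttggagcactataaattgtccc
Rps6: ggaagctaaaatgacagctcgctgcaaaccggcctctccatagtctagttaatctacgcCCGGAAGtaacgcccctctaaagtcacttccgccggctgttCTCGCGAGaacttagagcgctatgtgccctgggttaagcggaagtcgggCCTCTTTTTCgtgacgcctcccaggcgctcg
Rpl3l: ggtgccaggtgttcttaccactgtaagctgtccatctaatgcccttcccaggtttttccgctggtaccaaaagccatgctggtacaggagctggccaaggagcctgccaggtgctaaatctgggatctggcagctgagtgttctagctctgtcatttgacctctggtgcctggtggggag

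In the Rpl3l window none of the searched features was found.

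To see how the family is expressed in the ventricle, levels were first set side by side in WT. On a scale corrected for exonic length (TPM), core genes, which are the members without the paralogues, ranged from 18.7 to 3684 TPM. Medians were 478 TPM for the large subunit and 592 TPM for the small subunit. The highest were Rplp1 (3684 ± 58.4 TPM, SD, n = 4) and Rplp0 (2344 TPM), which form part of the stalk that recruits elongation factors. Rps15, Rpl36 and Rpl23a followed at 1949, 1721 and 1594 TPM. The ranks depended on the length used, since ranks by exonic length and by main mRNA length had a Spearman rho of 0.854 across the 81 genes, which are not independent.

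At the low end, Rpl7l1 was at 71.2 ± 2.85 TPM and Rps12 at 69.3 ± 18.3 TPM (SD, n = 4), a difference within the spread. Rpl5 was at 34.8 TPM, Rpl12 at 18.7 TPM and Rpl3l at 1.93 TPM. The low place of the 3 core genes among these went with counts in their copies. Pseudogene rows matched by sequence held 88% of the summed counts of Rps12 and its copies, 94.1% of those of Rpl5 and 94.4% of those of Rpl12. Gm10275 alone was at 434 ± 4.74 CPM in WT, whereas Rpl12 was at 23.8 ± 2.94 CPM.

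**Figure D1:**
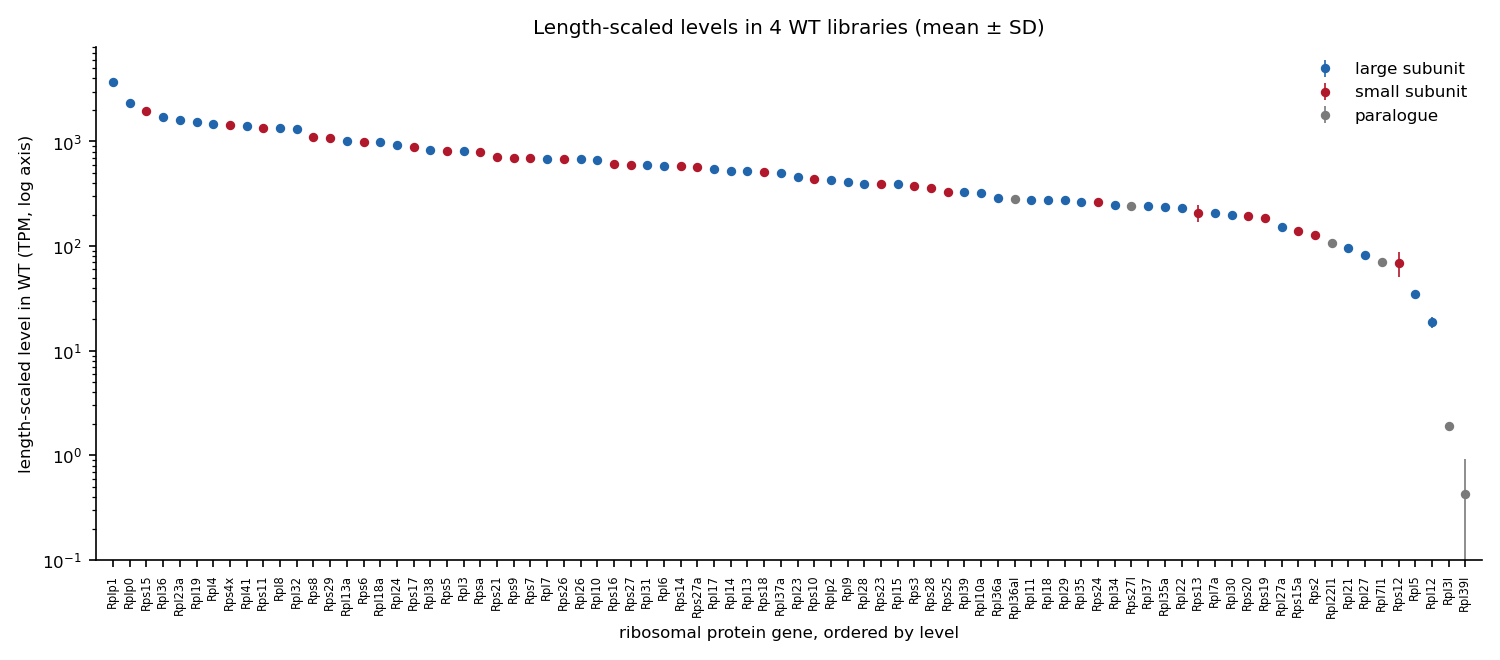
Length-scaled level in WT (TPM, log axis) of each ribosomal protein gene with a value above 0, ordered by level; points are means and bars SD of 4 libraries, coloured by subunit or paralogue. Rplp1 stands highest at 3684 TPM, Rpl5 and Rpl12 are the lowest core genes, and the paralogues Rpl3l and Rpl39l lie below all core genes.

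Comparison of the groups asked whether the mRNAs of the family change as a whole, by subunit or singly. In bulk tissue, fewer cells of a type and less RNA per cell cannot be told apart. Of the 81 genes tested, 1 rose (Rps2) and 1 fell (Rpl10) when edgeR's quasi-likelihood test was read at a false discovery rate (FDR) of 0.05. Over all 15388 genes tested, 0.312% rose and 0.214% fell, 0.526% in all. At an FDR of 0.1 these remained the 2 members called, against 0.617% of all genes in each direction. At an unadjusted p under 0.05, 3 members were higher and 4 lower, against 5.13% and 5.41% of all genes. In 74 of the 81 genes the log2 fold change was below 0.1 in size. The precision was high for most of these genes, with a median half-width of the 95% interval of 0.076 on the log2 scale, and in 72 genes the whole interval lay within -0.2 to 0.2.

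**Figure D2:**
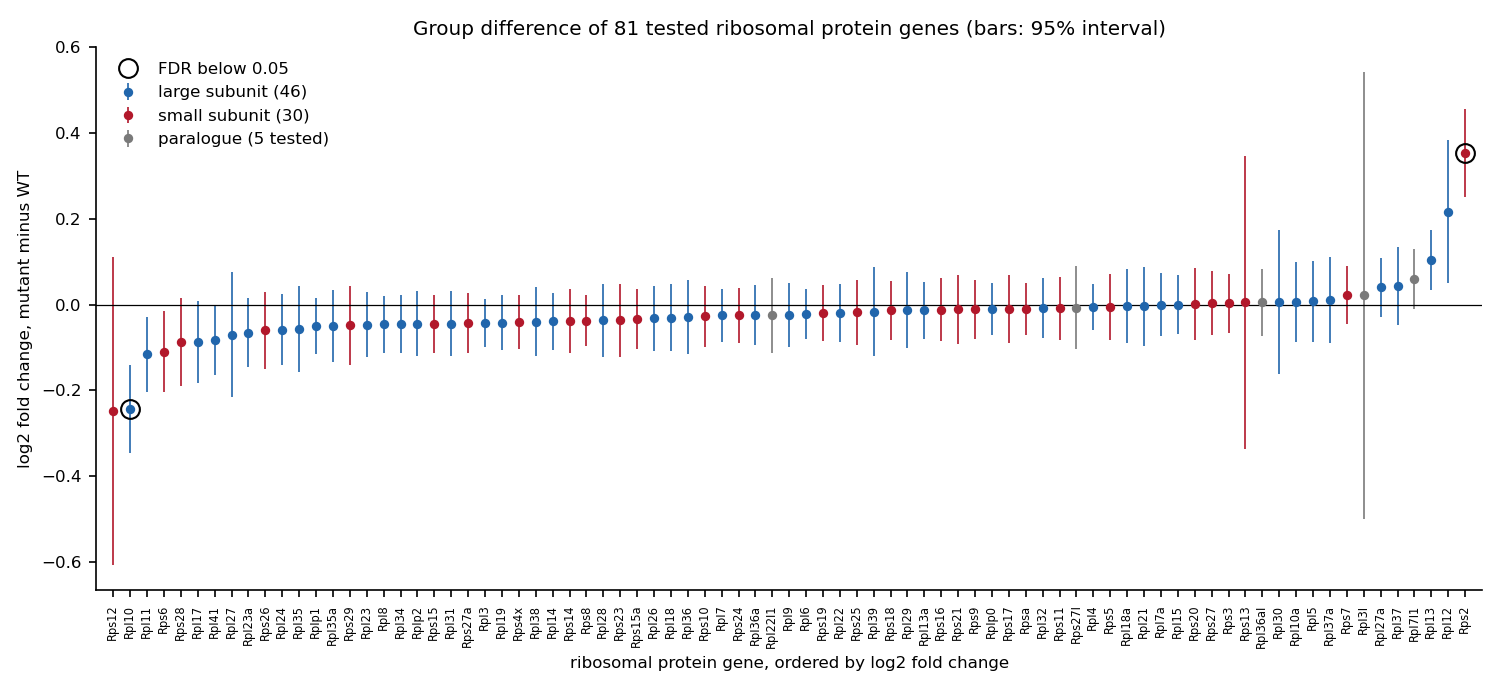
Log2 fold change (flox-labelled minus WT) with its 95% interval for the 81 tested genes, ordered by value and coloured by subunit or paralogue; rings mark FDR below 0.05. Only Rps2 (0.35) and Rpl10 (-0.24) carry a ring, and 74 points lie within 0.1 of 0.

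Most differences were small and below 0. Log2 fold changes were above 0 in 17 of 81 genes (21%) and in 49.4% of all genes tested. The median was -0.025 for the ribosomal protein genes and -0.0012 for all genes. Large subunit genes had a median of -0.027, with 38 of 46 below 0, and small subunit genes a median of -0.019, with 24 of 30 below 0. With the Y-linked sum as a covariate, these medians were -0.061 and -0.054. The genes of a library share its depth and RNA quality, so these counts are not independent observations.

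Summed over the 46 large subunit genes, WT libraries 1 to 4 held 16951, 17794, 17262 and 17423 CPM, and flox-labelled libraries 1 to 4 held 17074, 17366, 17027 and 16475 CPM. Small subunit sums were 11741, 12258, 11842 and 12101 CPM in the WT group and 11810, 12112, 11766 and 11471 CPM in flox-labelled libraries. In both subunits WT library 2 was highest, flox-labelled library 4 was lowest and the groups overlapped. The sum over both subunits was 29343 ± 582 CPM in the WT group and 28775 ± 631 CPM in flox-labelled libraries (SD, n = 4 each). This difference of -1.93% was smaller than the range from the lowest to the highest library within each group.

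Both subunits moved together from library to library. The ratio of the large to the small subunit sum was 1.44, 1.45, 1.46 and 1.44 in WT and 1.45, 1.43, 1.45 and 1.44 in flox-labelled libraries. Mean ratios were 1.448 ± 0.008 and 1.441 ± 0.0067 (SD, n = 4 each), and the groups overlapped.

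A pair of libraries stood at the ends of the range for most genes. WT library 2 was the highest of the 8 for 45 of the 81 genes, and flox-labelled library 4 was the lowest for 49. Leaving out WT library 2 raised the number of genes above 0 from 17 to 29, and leaving out flox-labelled library 4 raised it to 31. The median deviation from the WT mean was -0.077 for the ribosomal protein genes in flox-labelled library 4. Other protein-coding genes with an mRNA under 1000 bases had a median of -0.073 in the same library, and those of 4000 bases or more had 0.011. That library also had the lowest share of mitochondrial counts, at 5.75% against 6.10% to 6.38% in the others. The part of mRNA length, depth or RNA quality in the direction of the family was not tested. With counts corrected for GC content and length in each library, 28 genes lay above 0, and with the Y-linked sum as a covariate 7 did.

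**Figure D3:**
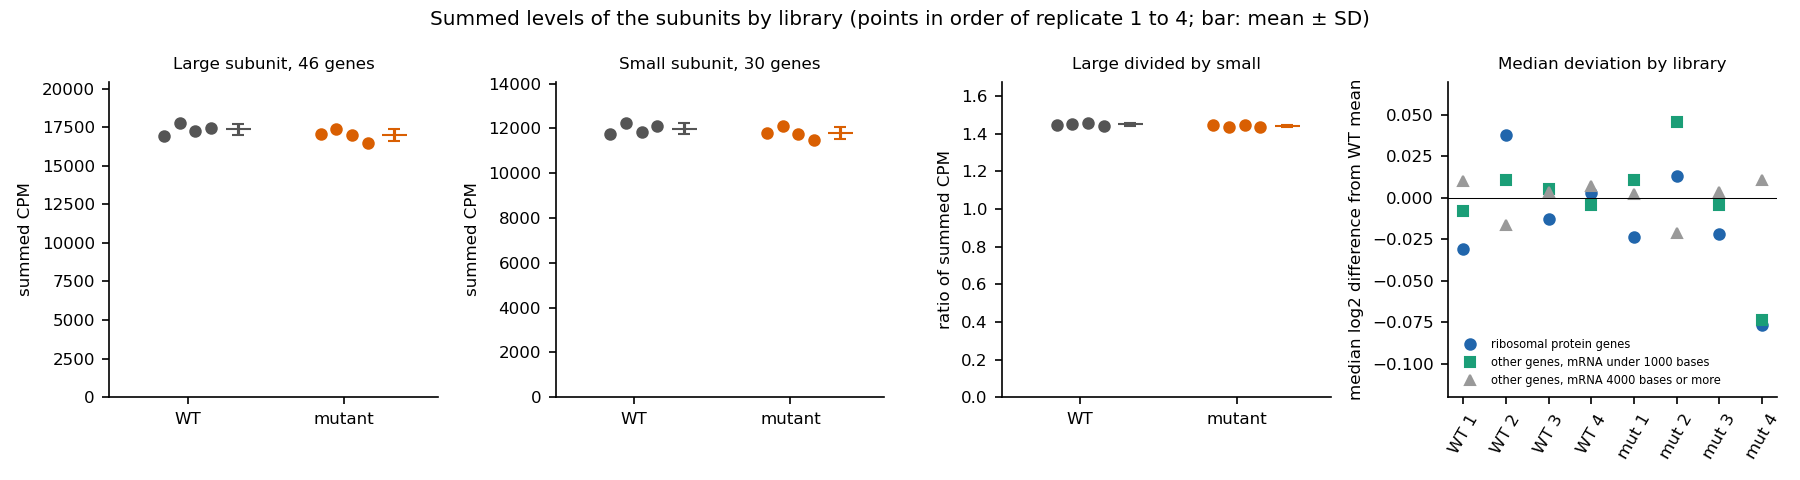
The first 3 panels show the summed CPM of 46 large subunit genes, of 30 small subunit genes and their ratio by library, with points for replicates 1 to 4 and bars for mean ± SD; the last shows each library's median log2 difference from the WT mean for the ribosomal protein genes and for other genes with short or long mRNAs. The groups overlap in every sum and in the ratio, and flox-labelled library 4 is lowest for the ribosomal protein genes (-0.077) and for short mRNAs (-0.073).

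Rps2, a small subunit protein that an arginine methyltransferase modifies, lies at chr17:24718116-24721929 (ENSMUSG00000044533, forward strand). Its level in WT libraries 1 to 4 was 88.4, 78.7, 80.6 and 85.6 CPM. In flox-labelled libraries 1 to 4 the level was 102, 100.1, 113 and 111 CPM. All 4 flox-labelled libraries lay above all WT libraries. Among all genes tested, 3.05% had such groups without overlap in this direction and 3% in the other. Means were 83.3 ± 4.48 and 106.5 ± 6.35 CPM (SD, n = 4 each), a log2 fold change of 0.35 (SE 0.047, 95% interval 0.25 to 0.46, edgeR FDR = 0.0109). It was called in 23 of 23 alternative analyses, in which the log2 fold change ranged from 0.31 to 0.41 and the largest FDR was 0.0486.

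Copies of Rps2 are many, since 61 pseudogene rows matched it by sequence, but they held only 7.04% of the summed counts. The gene and its copies together were at 91.2 CPM in WT, below the median of 385 CPM for small subunit genes alone. The 5 members with at least 50 matched rows had a WT median of 116 CPM, and the 42 with fewer than 10 had 310 CPM. Across tested members the number of rows and the WT level had a Spearman rho of -0.052. Whether reads that match many copies are missing from these counts was not tested. The copies of Rps2 together were at 7.89 ± 1.01 CPM in the WT group and 6.24 ± 0.918 CPM in flox-labelled libraries. Rps2-ps10, the only one with enough counts to be tested, was at 6.49 ± 0.74 and 4.77 ± 0.496 CPM (FDR = 0.142, edgeR). Its groups did not overlap, and its log2 fold change of -0.44 was opposite in sign to that of Rps2. Rps2 summed with its copies was at 96.3, 88.0, 87.6 and 93.0 CPM in the WT group and at 109, 107, 119 and 116 CPM in flox-labelled libraries. The sums did not overlap, and the log2 fold change was 0.31 (SE 0.042, FDR = 0.0102, edgeR).

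The genes beside Rps2 on chromosome 17 had no call. Ndufb10, a subunit of respiratory complex I whose end lies 130 bases away on the other strand, had a log2 fold change of -0.04 (SE 0.048). Tbl3 and Msrb1, within 20 kb, had 0.04 and -0.05. Small nucleolar RNA genes Snora64 and Snora78 and the antisense transcript Snhg9 overlap Rps2. Snhg9 was at 0.487 ± 0.107 CPM in the WT group and 0.338 ± 0.153 CPM in flox-labelled libraries, and whether counting used the strand is not given in the sources used here.

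The level of Rpl10 in WT libraries 1 to 4 was 453, 494, 505 and 502 CPM. In flox-labelled libraries 1 to 4 the level was 408, 449, 389 and 403 CPM. The groups did not overlap, although the lowest WT library (453 CPM) was close to the highest flox-labelled library (449 CPM). Means were 488 ± 24.2 and 413 ± 25.8 CPM (SD, n = 4 each), a log2 fold change of -0.24 (SE 0.047, 95% interval -0.35 to -0.14, edgeR FDR = 0.0454). It was called in 14 of 23 alternative analyses. The call was lost (adjusted p = 0.163 in edgeR) with the Y-linked sum as a covariate, and on leaving out WT library 2, 3 or 4 or flox-labelled library 1, 3 or 4, with adjusted p of 0.0578 to 0.167. The log2 fold change was -0.26 with the covariate and -0.24 to -0.22 in those leave-outs, so its size changed little.

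The copy with the same coding sequence had the opposite sign. Rpl10-ps3 was at 164, 181, 127 and 161 CPM in the WT group and at 182, 196, 202 and 214 CPM in flox-labelled libraries. The groups did not overlap, with a log2 fold change of 0.33 (SE 0.085) that did not pass the test (FDR = 0.129, edgeR). Rpl10 summed with its 18 matched copies was at 617, 676, 632 and 663 CPM in the WT group and at 591, 647, 592 and 619 CPM in flox-labelled libraries. These sums overlapped, and their log2 fold change was -0.08 (SE 0.039, FDR = 0.509, edgeR). The reads of the gene and its copy cannot be told apart within the coding sequence, so the fall of Rpl10 holds for the count assigned to Rpl10 and not for the sum.

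**Figure D4:**
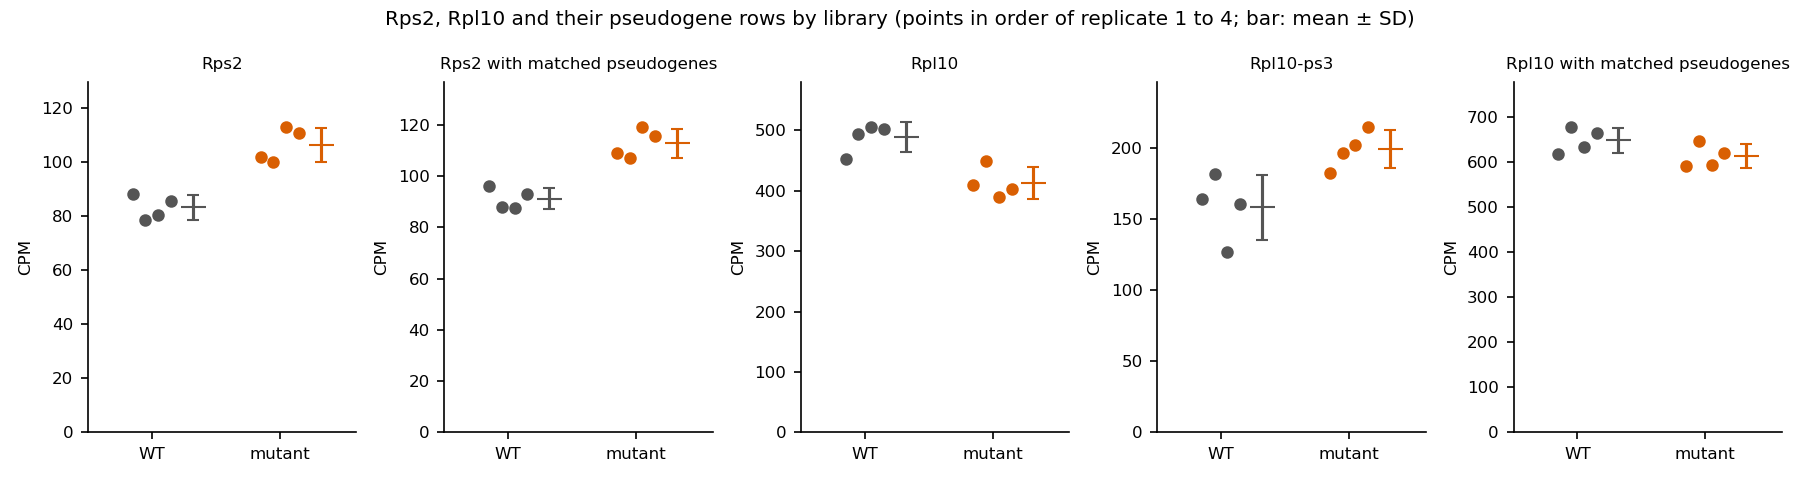
CPM by library of Rps2, of Rps2 summed with its matched pseudogene rows, of Rpl10, of Rpl10-ps3 and of Rpl10 summed with its matched pseudogene rows; points are replicates 1 to 4, bars mean ± SD, and each axis starts at 0. The groups stay apart for Rps2 with and without its copies, whereas those of Rpl10 overlap once its copies are added.

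Rpl10 is one of 4 members on the X chromosome. The others had log2 fold changes of -0.04 (Rps4x), -0.025 (Rpl36a) and -0.017 (Rpl39), and none was called. Xist was higher on average in flox-labelled libraries, and its part in the value of Rpl10 was not tested.

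Other members that stood at the ends did not pass the test. Rpl13, a large subunit protein, was at 495, 467, 480 and 461 CPM in the WT group and 504, 498, 525 and 517 CPM in flox-labelled libraries. All flox-labelled libraries lay above the WT libraries, and the log2 fold change was 0.10 (SE 0.033, FDR = 0.246, edgeR). Only 2.37% of its summed counts lay in copies, and the summed value was also 0.10 (FDR = 0.181, edgeR).

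Rpl12, which lies in the stalk base of the large subunit, was at 20.1, 26.0, 26.4 and 22.9 CPM in the WT group and 28.0, 26.4, 27.1 and 29.7 CPM in flox-labelled libraries. The groups did not overlap, and the log2 fold change was 0.22 (SE 0.077, FDR = 0.323, edgeR). With its copies it was at 458 ± 5.12 and 456 ± 7.65 CPM and the log2 fold change was -0.0065. In all, 3 of 81 genes had higher and 2 lower flox-labelled values without overlap, against 3.05% and 3% of all genes tested. The other lower one was Rpl3, which reaches towards the catalytic centre, at 908 ± 10.6 and 881 ± 12.2 CPM (log2 fold change -0.04, FDR = 0.613, edgeR).

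Among the lower values, Rps12 had the lowest log2 fold change of all members (-0.25, FDR = 0.654, edgeR). It ranged from -0.42 to -0.12 on leaving out 1 library and was -0.04 summed with its copies. By p, Rpl11, which also binds Mdm2 when ribosome assembly fails, came next after Rpl10. It was at 261 to 276 CPM in the WT group and 229 to 262 CPM in flox-labelled libraries (log2 fold change -0.12, FDR = 0.308, edgeR). Copies held 50.9% of its summed counts, and the summed value was -0.05 (FDR = 0.596, edgeR). Rps6, the small subunit protein phosphorylated by S6 kinases, was at 536 to 569 CPM and 488 to 562 CPM (log2 fold change -0.11, FDR = 0.39, edgeR). Its copy Rps6-ps4 was at 92.0 ± 12.4 and 122 ± 18.3 CPM (SD, n = 4 each, FDR = 0.134, edgeR), and the log2 fold change of Rps6 summed with its copies was -0.02. Rpl41, the smallest ribosomal protein, was at 562 to 591 CPM and 512 to 578 CPM, with a log2 fold change of -0.08. Its summed counts held 0% in copies. The next by p, Rpl17, Rps28, Rpl23a, Rplp1 and Rpl24, lay between -0.09 and -0.05, and on the other side Rpl27a, Rpl37, Rps7, Rpl37a and Rpl5 lay between 0.007 and 0.04. None of these genes was called.

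Rps12 and Rps13 varied most within WT among the core genes named here, with coefficients of variation of 27.2% and 18.7%. Rps13 was at 198, 189, 159 and 248 CPM in the WT group and 182, 189, 152 and 275 CPM in flox-labelled libraries. Its copy Rps13-ps1 was at 95.1, 111, 129 and 49.7 CPM in the WT group and at 106, 106, 130 and 5.83 CPM in flox-labelled libraries. Library 4 of each group was thus highest for the gene and lowest for the copy. The sum over all matched rows was steady, at 295 ± 5.39 and 287 ± 6.30 CPM (SD, n = 4 each).

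The size of the differences was set beside the share of counts in copies. Pseudogene rows numbering 1105 matched 80 of the members. In 43 members under 1% of the summed counts lay in copies, and their log2 fold changes ranged from -0.083 to 0.060. In 25 members over 10% did, and the range was -0.25 to 0.22. Of the 7 members with a log2 fold change of at least 0.1 in size, 5 were of the latter kind. When each gene was summed with its copies and all genes were fitted again, 2 members, Rps2 and Rpl13, had a log2 fold change of at least 0.1, and Rps2 was the 1 member called. Median WT levels were 413 CPM for the 43 members with under 1% and 258 CPM for the 25 members with over 10% of the summed counts in copies.

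**Figure D5:**
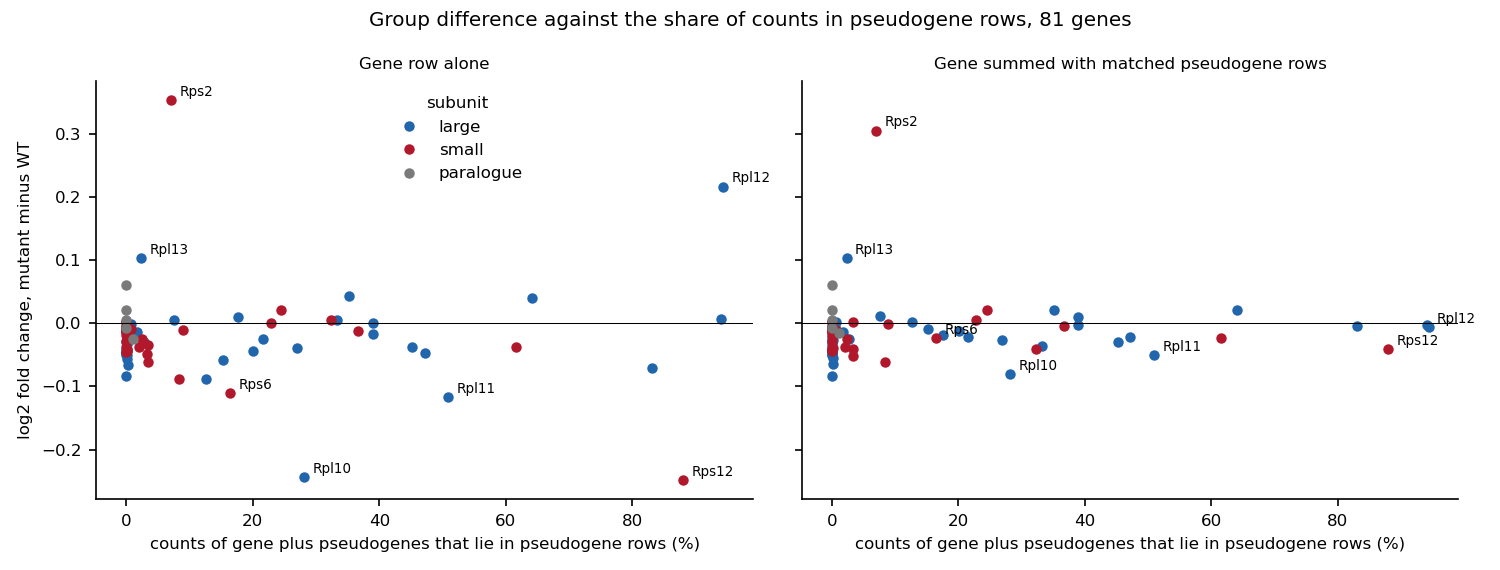
Log2 fold change (flox-labelled minus WT) of 81 genes against the percentage of the counts of the gene and its matched pseudogenes that lie in pseudogene rows, for the gene alone on the left and for the sum on the right; colours give the subunit. Rpl10, Rpl12 and Rps12 move close to 0 in the sum (-0.08, -0.0065 and -0.04), whereas Rps2 stays at 0.31.

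The paralogues were compared with their parents, to ask how much of the muscle form Rpl3l is present at this stage. Rpl3l lies 5890 bases beyond the end of Rps2, at chr17:24727820-24736143. It had 24, 23, 26 and 28 counts in WT and 30, 28, 24 and 12 counts in flox-labelled libraries. Levels were 1.12 ± 0.088 and 1.13 ± 0.332 CPM (SD, n = 4 each), with overlapping groups. The log2 fold change was 0.02 with a 95% interval of -0.50 to 0.54, so at this depth its value stayed uncertain within these bounds. Per length, Rpl3l made up 0.238% of the TPM of the pair in WT and 0.246% in flox-labelled libraries, with Rpl3 at 807 TPM in WT. With main mRNA length in place of exonic length the shares were 0.121% and 0.125%.

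The other paralogues differed widely in their share. Rpl36al made up 49.5 ± 0.762% of the TPM of its pair with Rpl36a in WT and 49.99 ± 0.767% in flox-labelled libraries (SD, n = 4 each). Rpl22l1 made up 31.6% and 31.4% of its pair with Rpl22, and Rps27l, a p53 target, 28.9% and 28.7% of its pair with Rps27. Rpl7l1 was at 9.39 ± 0.259% and 9.91 ± 0.159% of its pair with Rpl7. Its 4 flox-labelled shares (9.94%, 9.92%, 9.69% and 10.1%) lay above the WT shares (9.62%, 9.29%, 9.08% and 9.58%), whereas its own CPM overlapped (log2 fold change 0.06, FDR = 0.564, edgeR). Rpl39l, known from testis, had 0 to 7 counts per library and did not pass the filter. Rpl10l, also a testis gene, had 0 counts in all 8 libraries. Rps4l, which GENCODE M21 lists as a transcribed pseudogene and which is therefore no member, made up 14.0% and 15.1% of the TPM it shares with Rps4x. These shares rest on counts divided by estimation between genes with common sequence, and they leave out the pseudogene copies. Of the coding 60-base words of Rpl36al and of Rpl36a, 100% also occurred in other genes, as did 98.6% of the words of the Rps27 mRNA. Copies held 21.6% of the summed counts of Rpl36a. The part of this division in the shares was not tested. The shares also depended on the length used. With main mRNA length, Rpl22l1 made up 53.9% and 53.7% of its pair, Rps27l 18% and 17.9%, Rpl36al 33.8% and 34.3%, Rpl7l1 7.41% and 7.83%, and Rps4l 8.89% and 9.58%.

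Other genes of the pathway were taken as lists, and in each 0 genes were called. Among ribosomal protein genes outside the symbol rule, Rps3a1 had a log2 fold change of -0.025 and Fau, which encodes a fusion with a ubiquitin-like protein, had -0.15 (FDR = 0.418, edgeR). The 16 other TOP mRNAs, such as the elongation factors Eef1a1 (-0.02) and Eef2 (-0.04), had a median of -0.018, with 5 above 0. For 24 initiation factors the median was 0.013 with 16 above 0. Of the 24, 2 were higher without overlap, against 3.05% of all genes tested. Eif5 was at 277 ± 4.33 and 293 ± 1.82 CPM (log2 fold change 0.08, FDR = 0.304, edgeR), and Eif5a had 0.03 (FDR = 0.757, edgeR). Of 32 ribosome biogenesis genes listed 31 were found, with a median of 0.018 and 21 above 0. Nucleolin (Ncl) and nucleophosmin (Npm1) had -0.02 and -0.01.

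Host genes of small nucleolar RNAs, whose spliced RNAs include TOP transcripts, numbered 7 with a median of -0.02. Gas5 and Snhg8 were lower without overlap (-0.08 and -0.18, FDR = 0.354 and 0.43, edgeR), as were 3% of all genes tested. Of the 7 host genes, 3 had log2 fold changes above 0, the largest being 0.11 in Snhg6. The La-related proteins Larp1, Larp4 and Larp4b, which bind TOP or other mRNAs, lay between 0.02 and 0.05. For 10 targets of p53, which responds when free ribosomal proteins hold Mdm2, the median was 0.024. Cdkn1a and Mdm2 had 0.04 each, and Bbc3 had 0.26 (FDR = 0.465, edgeR).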

How the data were processed

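RNA-seq libraries were made from polyadenylated RNA with a directional kit and read as 60-base single reads. Per the labels, the authors trimmed reads with cutadapt and deposited RSEM 1.3.1 expected counts per Ensembl gene on GRCm38 (Ensembl release 91 per the table's name). RSEM divides reads matching several genes by estimation. Expected counts were rounded to whole numbers. GENCODE release M21 on the same assembly gave symbols and positions for 53360 of 53465 identifiers.

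Genes were filtered with filterByExpr by group (15388 left), scaled by TMM, and tested two-sided by edgeR 4.0.16 under R 4.3.3 (glmQLFit, then glmQLFTest) on a design holding group alone. P-values were adjusted by Benjamini-Hochberg over all tested genes, with a threshold of 0.05. CPM used TMM-scaled library sizes, and TPM used exonic lengths. Fits were tested on simulated data. Pseudogene rows were matched with blastn 2.17.0 (at least 90% identity, 50% query cover and 60 bases). Figures used matplotlib 3.10.9. Promoter sequences came from RefSeq on GRCm38.

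Alternatives were RLE, upper quartile and total scaling, scaling without the members, no filter, and a minimum of 1 CPM in 4 or more libraries. Other tests were DESeq2 1.42.0, the likelihood ratio test and voom (limma 3.58.1). Further fits had a replicate block, a Y-linked covariate, or no globin, mitochondrial, Xist and Y-linked genes, with other X-linked genes kept. The rest were a GC and length correction (lowess span 0.3), named pseudogenes summed, FDR 0.1 and leaving out each library. Summing sequence-matched pseudogenes and TPM by mRNA length were added after seeing the data. Members and lists were chosen with earlier results of these data known. Named members were those called, those with the 10 smallest p in each direction, the 5 highest and lowest levels, and paralogues with their parents. Rps13, Rpl30 and the examples from lists, neighbours and copies were named after their values were seen. One listed gene is not reported here.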

Additional observations from a re-analysis of the deposited data

Results flagged for a closer look

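In 3 members a single WT library stood apart from the other 3 by Dixon's test, among 78 groups of 4 libraries examined. Chance alone flags about 1 in 20 groups, which would be 3.9 here. Rpl7l1 was at 83.9 CPM in WT library 3 and at 89.3 to 90.2 CPM in the others. Rpl41 was at 562 CPM in WT library 1 and at 587 to 591 CPM in the others. Rpl7 was at 677 CPM in WT library 2 and at 645 to 647 CPM in the others. Each lay in a different library.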

How the results depend on the processing

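Rps2 kept its call and direction under every alternative run, and the number of members that rose was 1 in each. The number that fell was 0 with the Y-linked covariate and with named or sequence-matched pseudogenes summed, and 0 to 1 on leaving out 1 library. Genes called among all tested numbered 338 with no filter, 242 with the likelihood ratio test, 195 with DESeq2, 18 with the Y-linked covariate, 190 at FDR 0.1 and 11 to 142 on leaving out 1 library, against 81. The 11 stood without flox-labelled library 3 and the 142 without flox-labelled library 4. Medians of the large and small subunit were -0.061 and -0.054 with the Y-linked covariate.

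Small values changed sign in many members, of which some are given here. Rps13, at 0.0051 in the main fit, was at 0.26 with the Y-linked covariate. On leaving out 1 library it ranged from -0.19 (without flox-labelled library 4) to 0.13 (without WT library 4). Rpl30, at 0.0059 in the main fit, was at -0.087 with the covariate and at -0.049 to 0.085 on leaving out 1 library. With the Y-linked covariate Rpl3l was at -0.052, Rpl36al at -0.042, Rps7 at -0.0024, Rpl37a at -0.042, Rpl5 at -0.015 and Rps27 at -0.040. With sequence-matched pseudogenes summed Rpl12 was at -0.0065, Rpl37a at -0.018, Rpl5 at -0.0032 and Rpl17 at 0.0020, and with named ones Rpl17 was at 0.00099. Rpl3l was at -0.011 with limma voom and Rps27 at -0.0016 with upper quartile scaling. On leaving out 1 library the range was -0.14 (without flox-labelled library 1) to 0.17 (without flox-labelled library 4) for Rpl3l, -0.014 to 0.032 for Rpl36al, -0.044 to 0.012 for Rpl22l1, -0.041 to 0.028 for Rps27l, -0.019 to 0.048 for Rpl37a and -0.015 to 0.041 for Rpl5. It was -0.027 to 0.0028 for Rplp0, -0.044 to 0.0046 for Rpl36, -0.052 to 0.025 for Rpl39 and -0.013 to 0.027 for Rps27. None of these genes was called in any of these analyses, and the causes were not tested.

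The replicate numbers gave correlations of deviations of 0.0398 to 0.124 within same-numbered pairs and -0.093 to 0.0228 between differently numbered ones. All 4 same-numbered pairs lay above the others, a hint of pairing from the data, but not all exceeded 0.1 and no label gives a shared litter or day, so the numbers were not taken as pairs. With the replicate block 93 genes were called, and Rps2 (0.35) and Rpl10 (-0.24) remained called. Expected counts limit what can be said of genes with identical copies, and the few counts of Rpl3l left its log2 fold change uncertain within a wide interval.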
